A study of Mus musculus with 6 samples.

Results

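Leukemia cells that overexpressed Evi1 were compared with preleukemia cells that overexpressed the same gene, over every gene that reached 1 RPKM in at least 2 of the 4 libraries of these groups. This rule kept 10667 genes of the 38924 rows of the expression table. Bone marrow transduced with a vector carrying Evi1 and green fluorescent protein (GFP) had been transplanted into C57BL/6 mice, and marrow was taken 4 weeks later (preleukemia, 2 libraries) or 6 months later (leukemia, 2 libraries). Another group carried GFP alone and was sampled at 4 weeks (mock, 2 libraries). Its values are given beside the others, and its pair entered the fit and so the spread behind every p-value. In each group RNA came from marrow sorted for GFP, for c-kit and for the absence of lineage markers. Age after transplantation and leukemia differ together between the groups compared, no GFP control at 6 months was analysed here, and the effects of time and of disease therefore cannot be told apart. Nothing in the labels says that 2 libraries of a group stand for different mice, and the p-values cover only the spread seen between libraries, which may be technical.

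Evi1, transcribed from the Mecom locus, encodes a zinc finger transcription factor of hematopoietic stem cells, and its overexpression marks a group of myeloid leukemias with poor outcome. The protein binds corepressors and other hematopoietic factors and restrains differentiation along the myeloid and erythroid lineages. Cells that lack lineage markers and carry c-kit, the receptor of stem cell factor, include stem cells and the progenitors of granulocytes, monocytes, red cells and platelets.

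RPKM is the number of reads on a gene per 1 kb of transcript, scaled by library size. The steps of low values implied totals of roughly 16917696 to 21630813 reads per library, and 3 reads on a transcript of 1 kb corresponded to 0.139 to 0.177 RPKM, a limit that covers counting error only. The median absolute difference between the libraries of a pair was 0.11 in preleukemia, 0.108 in leukemia and 0.214 in mock on the log2(RPKM + 1) scale, on which all fold changes below stand unless called a ratio of RPKM. Values of a pair are given with library 1 first.

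The targeted gene was high in both groups compared. Mecom measured 78 and 80.1 RPKM in preleukemia and 61.7 and 71.5 in leukemia, against 0.774 and 0.805 in mock. The leukemia libraries lay below the preleukemia libraries, but the difference did not pass the test (log2 fold change -0.25 ± 0.11 (SE), adjusted p = 0.155, limma with Benjamini-Hochberg adjustment). These values do not separate transcripts of the introduced gene from those of the endogenous locus (chr3:29951296-30548008 on GRCm38, minus strand). Kit, which encodes the receptor used in the sort, measured 60.03 and 56.9 RPKM in preleukemia and 49.3 and 46.8 in leukemia and did not pass (log2 fold change -0.28, adjusted p = 0.137). Kit passed without mock 1 (adjusted p = 0.0363) or mock 2 (0.0363). Ptprc, the leukocyte antigen CD45, measured 41.9 and 45.1 RPKM in preleukemia and 43.4 and 47.1 in leukemia. Among markers of cells that the sort should have removed, Cd3e of T cells was 0 in both leukemia libraries and 0.0411 and 0 RPKM in preleukemia. Itgam, the myeloid integrin CD11b, was present at 37.1 and 53.2 RPKM in preleukemia and 13.7 and 21.7 in leukemia and fell (log2 fold change -1.31, adjusted p = 0.0129). Itgam lost its call without preleukemia 2 (adjusted p = 0.096) or leukemia 1 (0.0663). The part of such cells in the differences of myeloid genes was not tested. Among the stromal and endothelial genes Col1a1, Col3a1, Cdh5 and Cxcl12, the highest value in any library was 0.387 RPKM, for Col1a1 in preleukemia 2.

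Of the 10667 genes, 2019 (18.9%) changed at an adjusted p under 0.05: 592 (5.55%) were higher and 1427 (13.4%) lower in leukemia. Changes of at least 1 on the log2 scale (679 genes, 6.37%) were also more often falls, with 165 genes higher (1.55%) and 514 lower (4.82%). The groups' libraries did not overlap for 7561 genes (70.9%), of which 2673 were higher (25.1% of those tested) and 4888 lower (45.8%). The size of the excess of falls depended on the scaling. The median change of all genes was -0.09 on the deposited scale, 0.00 after a scaling like TMM and 0.03 after quantile normalization, and the changed genes then split into 828 higher and 1095 lower, and 946 higher and 972 lower. Among changes of at least 1 the excess remained under both, with 205 higher and 440 lower, and 220 higher and 404 lower. Changes of lists are therefore read against a median of -0.09 for all genes. Counts of calls rested on having both libraries of each Evi1 group: 762 genes passed without preleukemia 1, 467 without preleukemia 2, 551 without leukemia 1 and 918 without leukemia 2. Leaving out mock 1 or mock 2 gave 3441 in each case. Changes of at least 1 numbered 406 without preleukemia 2 (107 higher, 299 lower) and 426 without leukemia 1 (110 higher, 316 lower). In each such fit a lone library was assumed to vary like the other groups.

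**Figure D1:**
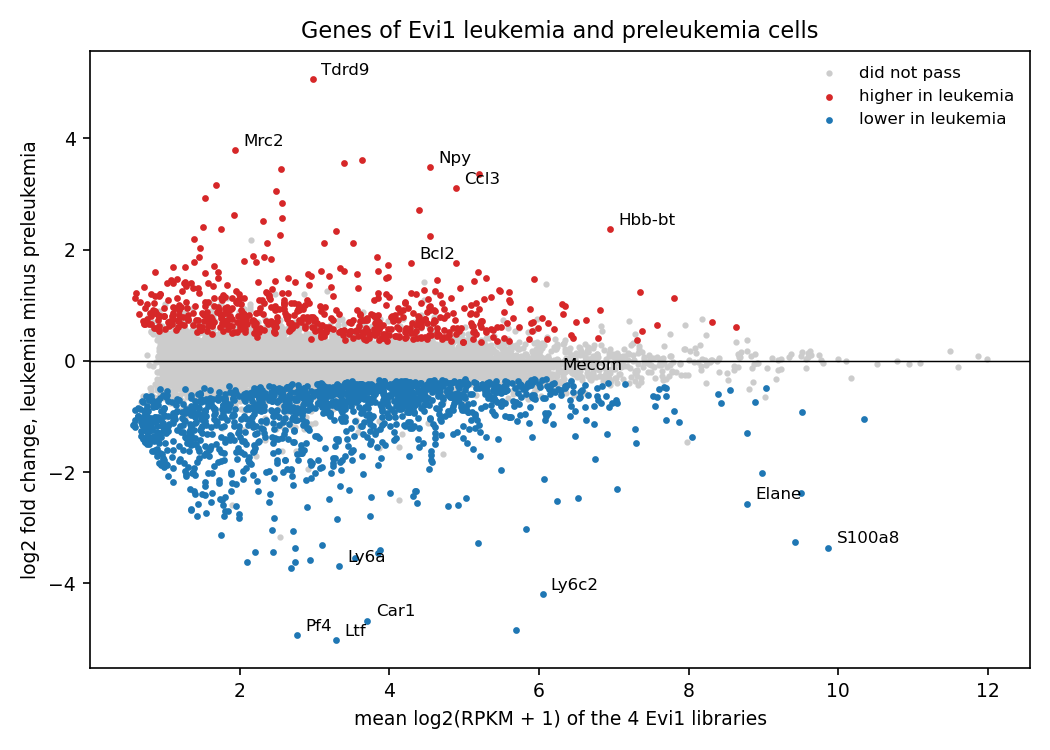
Each point is 1 of the 10667 genes tested, with its mean log2(RPKM + 1) over the 4 Evi1 libraries on the horizontal axis and the log2 fold change of leukemia minus preleukemia on the vertical axis. Red points (592) were higher and blue points (1427) lower in leukemia at an adjusted p under 0.05, and the largest falls include Pf4, Ltf and Car1, while the largest rise is that of Tdrd9.

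The genes that rose most were mostly low in preleukemia, and several have their best known roles outside blood. Tdrd9, an RNA helicase of the germline piRNA pathway (chr12:111971559-112068854, plus strand), measured 0.393 and 0.317 RPKM in preleukemia and 46.7 and 42.5 in leukemia. Both leukemia libraries lay far above the others, a 126.0-fold ratio of mean RPKM (log2 fold change 5.07 ± 0.13 (SE), adjusted p = 3.02e-05). The other genes of the piRNA and germline list did not rise with it: of 5 tested members Tdrd9 alone was higher and Tdrd7 alone was lower (log2 fold change -0.70, adjusted p = 0.0171). Tdrd7 lost its call without preleukemia 1 (adjusted p = 0.0628), preleukemia 2 (0.142), leukemia 1 (0.135) or leukemia 2 (0.0564). Mrc2, an endocytic collagen receptor (chr11:105292643-105351139), measured 0.0266 and 0.0346 RPKM in preleukemia and 14.2 and 12.3 in leukemia (log2 fold change 3.78 ± 0.14 (SE), adjusted p = 9.99e-05). Npy, which encodes the neuropeptide Y precursor (chr6:49822710-49829507), measured 6.16 and 5.8 RPKM in preleukemia and 74.8 and 79.1 in leukemia, against 0 and 0.0874 in mock (log2 fold change 3.48 ± 0.11 (SE), adjusted p = 8.88e-05). In all 3 genes each leukemia library was above each preleukemia library, which the rule for naming them required. The ratio of mean RPKM was 432.0-fold for Mrc2 and 12.9-fold for Npy. Camkv, a kinase-like protein of neurons (chr9:107935674-107949691), measured 0.721 and 0.808 RPKM in preleukemia and 19.7 and 17.1 in leukemia (log2 fold change 3.45, adjusted p = 0.000105). Capn11, a calpain protease known from testis (chr17:45630204-45659325), measured 0.0436 and 0.102 RPKM in preleukemia and 8.95 and 8.25 in leukemia (log2 fold change 3.16, adjusted p = 0.000141). Neither gene exceeded 1 RPKM in a mock or preleukemia library.

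The other large rises included a chemokine, a small GTPase, a receptor, a ligand and enzymes. The chemokine gene Ccl3 measured 6.79 and 12 RPKM in preleukemia and 90.9 and 81.2 in leukemia (log2 fold change 3.11, adjusted p = 0.00212), above 23.8 and 40.8 in mock. Gem, a small GTPase induced by mitogens, measured 1.69 and 0.835 RPKM in preleukemia and 13 and 17 in leukemia (log2 fold change 2.84, adjusted p = 0.00358). Ptgir, the prostacyclin receptor, measured 1.19 and 1.66 RPKM in preleukemia and 13.9 and 12.8 in leukemia (log2 fold change 2.58, adjusted p = 0.000437). In each of the 3 the leukemia libraries were the highest of the 6. Gdf3, a ligand of the TGF-beta family, measured 2.89 and 3.85 RPKM in preleukemia and 21.7 and 20.1 in leukemia (log2 fold change 2.33, adjusted p = 0.00194). Msrb3, a methionine sulfoxide reductase, measured 0.671 and 0.4 RPKM in preleukemia and 9.63 and 7.27 in leukemia (log2 fold change 2.62, adjusted p = 0.00121). Spats2, a cytoplasmic protein known from spermatogenesis, measured 0.193 and 0.286 RPKM in preleukemia and 6.26 and 4.88 in leukemia (log2 fold change 2.40, adjusted p = 0.000819). These 3 were also highest in leukemia. Tmprss3, a transmembrane serine protease, measured 0.965 and 1.2 RPKM in preleukemia and 11 and 10.8 in leukemia and 7.23 and 7.46 in mock, so that only preleukemia was low (log2 fold change 2.52, adjusted p = 0.000183). Each of the 15 largest rises kept its call with any 1 of the 6 libraries left out.

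The 15 largest falls had log2 fold changes from -5.02 for Ltf to -3.36 for Ly6c1. Pf4, platelet factor 4 (chr5:90772435-90773383), measured 43.7 and 30.9 RPKM in preleukemia and 0 and 0.521 in leukemia (log2 fold change -4.94 ± 0.25 (SE), adjusted p = 0.000236), and was below its mock level of 9.24 and 11.6 too. Car1, a carbonic anhydrase of red cell progenitors (chr3:14766216-14808368), measured 86.2 and 48.6 RPKM in preleukemia and 0.534 and 3.34 in leukemia (log2 fold change -4.67 ± 0.58 (SE), adjusted p = 0.00386). Its mock libraries held 174 and 73.4 RPKM, so the mock libraries too lay above both leukemia libraries. Prom1, the membrane glycoprotein CD133, measured 11.7 and 16.8 RPKM in preleukemia and 0.0738 and 0.394 in leukemia (log2 fold change -3.62, adjusted p = 0.0014). Tgfbi, a secreted matrix protein, measured 25.9 and 25.2 RPKM in preleukemia and 1.14 and 1.27 in leukemia (log2 fold change -3.59, adjusted p = 0.000177). Ptpn12, a cytoplasmic tyrosine phosphatase (chr5:20986645-21055911), measured 15.3 and 18.5 RPKM in preleukemia and 0.149 and 1.38 in leukemia and 15.6 and 20.5 in mock (log2 fold change -3.43, adjusted p = 0.00209). Prom1 and Tgfbi were highest in preleukemia, with 1.46 and 0.471 and 4.34 and 6.39 RPKM in mock, whereas the mock and preleukemia ranges of Ptpn12 overlapped. Ltf, the granule protein lactoferrin, had the largest fall, but its preleukemia libraries were far apart: it measured 17.4 and 166 RPKM in preleukemia and 0.208 and 1.43 in leukemia (log2 fold change -5.02 ± 0.93 (SE), adjusted p = 0.0135). Ltf lost its call without leukemia 1 (adjusted p = 0.0871). Ngp lost its call without preleukemia 2 (adjusted p = 0.152) or leukemia 1 (0.112). Cd177 lost its call without preleukemia 2 (adjusted p = 0.0802) or leukemia 1 (0.0865). Ly6c2 lost its call without preleukemia 2 (adjusted p = 0.0703). The other 11 of the 15 kept their calls with any 1 library left out.

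**Figure D2:**
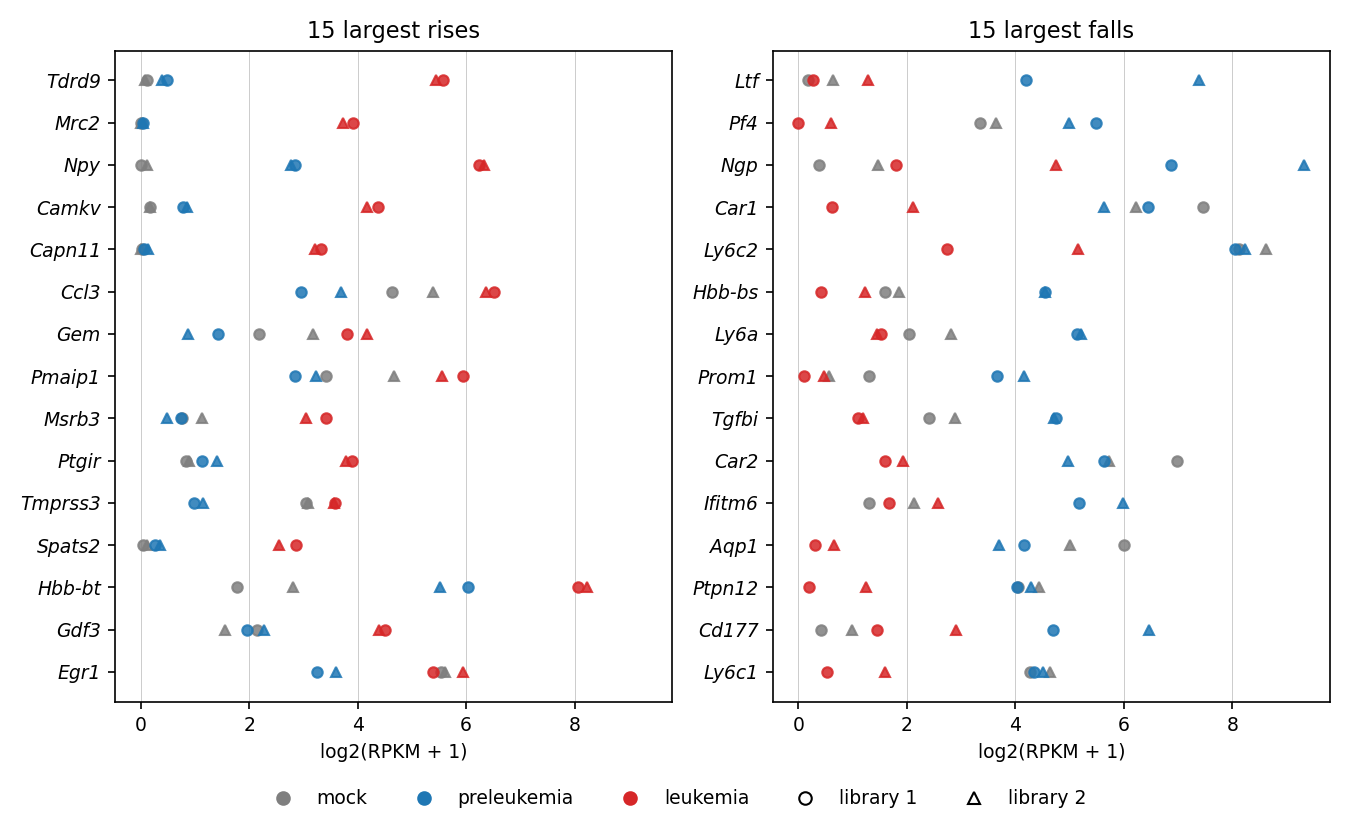
Log2(RPKM + 1) of the 15 genes with the largest rises (left) and the 15 with the largest falls (right) in each of the 6 libraries, with circles for library 1 and triangles for library 2. The leukemia libraries (red) lie above both preleukemia libraries (blue) in each row on the left and below both on the right, which the rule that chose these genes required. The preleukemia libraries of Ltf (17.4 and 166 RPKM) are far apart.

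Where a gene lies on its chromosome was compared for rises and falls, as a description. Of the 15 largest falls 10 had an adjacent tested gene that was also lower, against 24.8% of all tested genes with a position. Most of these lie beside members of their own family or, for Pf4, another platelet chemokine: Car1 with Car2 and Car13, Pf4 with Ppbp, Ifitm6 with Ifitm3, and Ly6a with Ly6c1, Ly6c2 and Ly6i. Car1 and Car2, and Ly6a, Ly6c1 and Ly6c2, are themselves among the 15 and lie next to each other. The 10 are therefore not separate places, and the share of all genes is not a like comparison. Adjacent here means the next tested gene, which may be distant: the gene that was also lower was Tapt1 at 73.1 kb for Prom1, Fgl2 at 317 kb for Ptpn12 and Lsm5 at 1352508 bases for Aqp1. Of the 15 largest rises 4 had an adjacent gene that was also higher, against 10.5% of all tested genes. For Hbb-bt this was Trim68, 1125197 bases away. Ccl3 lay 13.2 kb from Ccl4, which measured 2.15 and 4.55 RPKM in preleukemia and 19.9 and 14.9 in leukemia (log2 fold change 2.12, adjusted p = 0.00401). Beside Tdrd9, Mrc2, Npy, Camkv and Capn11 no adjacent tested gene rose. Median changes of whole chromosomes ran from -0.14 to -0.01 over the 20 chromosomes.

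Granule proteases of myeloid progenitors were lower in leukemia. Of 14 tested genes of the primary granule list, 12 fell and none rose, with fewer falls when any 1 of the 4 Evi1 libraries was left out. The list joins genes of the primary granules, which neutrophils form first, to others such as Ms4a3, Igsf6, Gstm1, Nkg7 and Plac8. Its count, median and sum are therefore not those of granule genes alone. The median change was -1.16, and the summed level was 5855 and 6333 RPKM in preleukemia and 2396 and 2438 in leukemia, against 4459.7 and 3415 in mock. Elane, neutrophil elastase, measured 972 and 1176 RPKM in preleukemia and 156 and 207 in leukemia (log2 fold change -2.57 ± 0.20 (SE), adjusted p = 0.00127). Prtn3, proteinase 3, measured 988 and 1041 RPKM in preleukemia and 245 and 257 in leukemia (log2 fold change -2.01 ± 0.12 (SE), adjusted p = 0.000437). Ctsg, cathepsin G, measured 656 and 722 RPKM in preleukemia and 273 and 288 in leukemia (log2 fold change -1.29, adjusted p = 0.00386). All 3 were also below mock in both leukemia libraries. Mpo, myeloperoxidase, remained the most abundant of them at 1857 and 1874 RPKM in preleukemia and 967 and 851 in leukemia, a smaller fall (log2 fold change -1.04, adjusted p = 0.0113). Mpo lost its call without preleukemia 1 (adjusted p = 0.0592), preleukemia 2 (0.0761), leukemia 1 (0.055) or leukemia 2 (0.067). Ms4a3, a membrane protein of granulocyte progenitors, measured 153 and 211 RPKM in preleukemia and 23.2 and 40.5 in leukemia (log2 fold change -2.51, adjusted p = 0.00295).

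Most genes of later neutrophil maturation fell as well. Of 23 tested, 14 fell (15, 7, 6 and 14 without preleukemia 1, preleukemia 2, leukemia 1 and leukemia 2) and none rose (1 without mock 1 or mock 2), with a median of -1.95. Their summed level was 5953 and 11669 RPKM in preleukemia and 1052 and 1599 in leukemia, but 228 and 278 RPKM in mock, so leukemia lay between the others. S100a8 and S100a9 encode the subunits of calprotectin. S100a8 measured 2179 and 4117 RPKM in preleukemia and 227 and 373 in leukemia (log2 fold change -3.36 ± 0.33 (SE), adjusted p = 0.00212), and S100a9 measured 1474 and 3049 RPKM in preleukemia and 173 and 284 in leukemia (log2 fold change -3.25, adjusted p = 0.00543). Lyz2, lysozyme, measured 1356 and 2024 RPKM in preleukemia and 293 and 348 in leukemia (log2 fold change -2.37, adjusted p = 0.00208). The groups did not overlap in any of these, and all remained above mock in leukemia, where S100a8 had 6.25 and 5.68 RPKM. Lcn2, lipocalin 2 of the secondary granules, measured 61 and 204 RPKM in preleukemia and 5 and 21.6 in leukemia (log2 fold change -3.27, adjusted p = 0.023). Lcn2 lost its call without preleukemia 2 (adjusted p = 0.134) or leukemia 1 (0.104). Ngp, a granule protein of immature neutrophils, measured 117 and 643 RPKM in preleukemia and 2.46 and 25.8 in leukemia (log2 fold change -4.83, adjusted p = 0.0259). Preleukemia 2 was above preleukemia 1 in 22 of the 23 genes, and in bulk RNA fewer cells of a type and less RNA per cell cannot be told apart. Padi4 and Cxcr2 did not follow the others. Padi4, which citrullinates histones, measured 44.6 and 52.2 RPKM in preleukemia and 58.8 and 53.7 in leukemia (log2 fold change 0.22, adjusted p = 0.342), and Cxcr2, a chemokine receptor, measured 8.94 and 7.07 RPKM in preleukemia and 11.5 and 10.8 in leukemia (log2 fold change 0.44, adjusted p = 0.0907). Cxcr2 passed without mock 1 (adjusted p = 0.0462) or mock 2 (0.0457).

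Regulators of the myeloid lineage, a list of transcription factors and cytokine receptors, moved in both directions. Of 19 tested 3 rose (1, 0, 1 and 1 without preleukemia 1, preleukemia 2, leukemia 1 and leukemia 2, and 5 and 5 without mock 1 and mock 2) and 3 fell (2, 1, 1 and 3 without preleukemia 1, preleukemia 2, leukemia 1 and leukemia 2, and 7 and 7 without mock 1 and mock 2), with a median of -0.19. Of all genes tested 5.55% were higher and 13.4% lower, and the share of falls in this list was near the latter. Cebpd, a C/EBP factor induced in granulocytes, measured 28.3 and 43.1 RPKM in preleukemia and 9.56 and 13.4 in leukemia (log2 fold change -1.54, adjusted p = 0.00637). Gfi1, a repressor needed for neutrophils, measured 36 and 50.1 RPKM in preleukemia and 9.59 and 14 in leukemia (log2 fold change -1.78, adjusted p = 0.00786). Runx1, a core factor of blood formation, measured 18.8 and 17.6 RPKM in preleukemia and 46.9 and 35.5 in leukemia and rose (log2 fold change 1.12, adjusted p = 0.00728). Gfi1 lost its call without preleukemia 2 (adjusted p = 0.068) or leukemia 1 (0.0535). Runx1 lost its call without preleukemia 2 (adjusted p = 0.0674). Among 18 tested monocyte and macrophage genes 6 fell (3, 2, 3 and 4 without preleukemia 1, preleukemia 2, leukemia 1 and leukemia 2) and 1 rose (1, 0, 1 and 1 without preleukemia 1, preleukemia 2, leukemia 1 and leukemia 2, and 3 and 3 without mock 1 and mock 2). Mpeg1, a pore-forming protein of macrophages, measured 69.6 and 77.4 RPKM in preleukemia and 8.72 and 14.6 in leukemia (log2 fold change -2.59, adjusted p = 0.00188). Ly6c2, an antigen of inflammatory monocytes and their progenitors, measured 264 and 301 RPKM in preleukemia and 5.68 and 34.8 in leukemia (log2 fold change -4.19, adjusted p = 0.00891), and 277 and 390.4 in mock. Leukemia 2 was well above leukemia 1. Cd68, a lysosomal membrane protein, was the member that rose, from 23.1 and 23.3 to 45.2 and 49.6 RPKM (log2 fold change 1.00, adjusted p = 0.00533). Cd68 lost its call without preleukemia 2 (adjusted p = 0.0525). Ly6c2 lost its call without preleukemia 2 (adjusted p = 0.0703). C1qa of tissue macrophages was 0 in both leukemia libraries. The median of the 18 genes was -0.14, near the -0.09 of all genes, with 7 changes positive and 11 negative. The markers Csf1r (log2 fold change 0.52, adjusted p = 0.12) and Ccr2 (0.11, adjusted p = 0.521) did not pass.

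Red cell genes were mostly low in leukemia, with 1 globin gene against the rest. Of 36 tested erythroid genes 18 fell (6, 6, 7 and 12 without preleukemia 1, preleukemia 2, leukemia 1 and leukemia 2) and 1 rose, with a median of -1.11. Car2, a carbonic anhydrase, measured 49 and 30.3 RPKM in preleukemia and 2.02 and 2.82 in leukemia (log2 fold change -3.54, adjusted p = 0.00313), and Aqp1, a water channel, measured 16.9 and 11.9 RPKM in preleukemia and 0.236 and 0.581 in leukemia (log2 fold change -3.45, adjusted p = 0.00209). Both were higher still in mock, at 126 and 52 and 63.5 and 31.1 RPKM. Tfr2, a transferrin receptor of erythroid cells, measured 21.8 and 18.4 RPKM in preleukemia and 4.75 and 5.44 in leukemia (log2 fold change -1.79, adjusted p = 0.00338). Klf1, the master regulator of the lineage, measured 9.05 and 6.39 RPKM in preleukemia and 0.652 and 1.36 in leukemia (log2 fold change -2.13, adjusted p = 0.0343), and Epor, the erythropoietin receptor, measured 4.59 and 3.61 RPKM in preleukemia and 0.13 and 0.584 in leukemia (log2 fold change -1.92, adjusted p = 0.0129). Klf1 lost its call without preleukemia 1 (adjusted p = 0.166), preleukemia 2 (0.126), leukemia 1 (0.172) or leukemia 2 (0.0857). Epor lost its call without preleukemia 1 (adjusted p = 0.0798), preleukemia 2 (0.0711) or leukemia 1 (0.0856). The adult beta globin genes went opposite ways. Hbb-bs measured 22.3 and 22.5 RPKM in preleukemia and 0.331 and 1.36 in leukemia (log2 fold change -3.72, adjusted p = 0.000895), while its neighbour Hbb-bt, 12.5 kb away on the chromosome, measured 64.1 and 44.6 RPKM in preleukemia and 266 and 298 in leukemia (log2 fold change 2.37, adjusted p = 0.00517). These genes are nearly identical, as are the alpha globin copies, so the assignment of reads between them is uncertain. In RPKM the rise of Hbb-bt was larger than the whole preleukemia level of Hbb-bs. Both alpha globin copies fell, Hba-a2 from a mean of 11.3 RPKM in preleukemia to 1.43 in leukemia. Hba-a1 measured 31.6 and 21.1 RPKM in preleukemia and 0.528 and 3.82 in leukemia (log2 fold change -3.31, adjusted p = 0.00702). Alas2, the erythroid enzyme that starts heme synthesis, was 0 in the 4 Evi1 libraries.

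Most of the megakaryocyte and platelet genes tested fell. Of 17 tested, 10 fell (6, 7, 6 and 10 without preleukemia 1, preleukemia 2, leukemia 1 and leukemia 2) and 2 rose (1, 1, 1 and 1 without preleukemia 1, preleukemia 2, leukemia 1 and leukemia 2), with a median of -1.15. Ppbp, a platelet chemokine, measured 7.06 and 5.18 RPKM in preleukemia and 0.0441 and 0 in leukemia (log2 fold change -2.79, adjusted p = 0.000968). F2r, the thrombin receptor, measured 10.01 and 6.71 RPKM in preleukemia and 1.18 and 1.28 in leukemia (log2 fold change -2.05, adjusted p = 0.00173), and Vwf, von Willebrand factor, measured 3.56 and 2.84 RPKM in preleukemia and 0.444 and 0.611 in leukemia (log2 fold change -1.45, adjusted p = 0.0025). None of these overlapped between the groups. Selp, the adhesion molecule P-selectin, rose, measuring 25.9 and 19.2 RPKM in preleukemia and 66 and 63.2 in leukemia (log2 fold change 1.49, adjusted p = 0.00209). Plek, a substrate of protein kinase C in platelets and leukocytes, measured 7.53 and 5.56 RPKM in preleukemia and 26.6 and 26 in leukemia (log2 fold change 1.87, adjusted p = 0.0129). The mock mean of Plek was 38.8 RPKM, so by group means preleukemia was low. Itga2b, the platelet integrin CD41, measured 9.39 and 7.97 RPKM in preleukemia and 2.74 and 9.26 in leukemia, with leukemia 2 inside the preleukemia range (log2 fold change -0.64, adjusted p = 0.323). Plek lost its call without preleukemia 1 (adjusted p = 0.0501), preleukemia 2 (0.101), leukemia 1 (0.0761) or leukemia 2 (0.0572). Itga2b passed without leukemia 2 (adjusted p = 0.011).

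**Figure D3:**
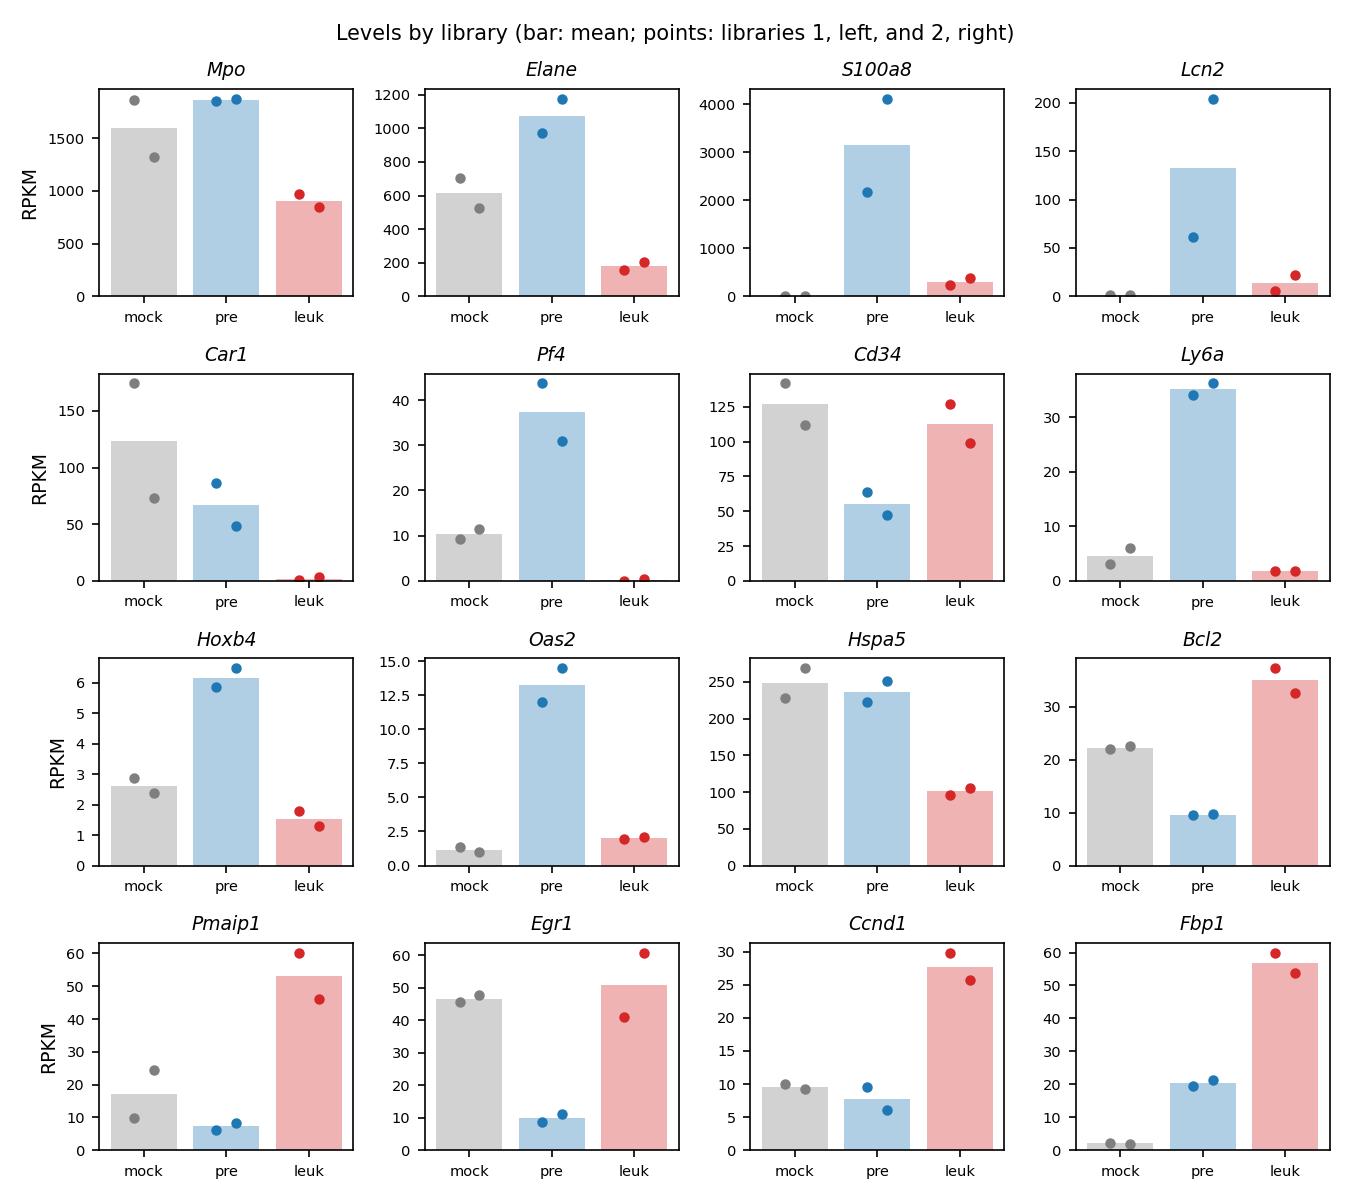
RPKM of 16 genes by group, with bars for group means, the left point for library 1 and the right for library 2. Mpo, Elane, Car1, Pf4, Hoxb4 and Hspa5 are lowest in leukemia, S100a8, Lcn2, Ly6a and Oas2 are highest in preleukemia, and Bcl2, Pmaip1, Ccnd1 and Fbp1 are highest in leukemia.

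Genes of other lineages were few above 1 RPKM. Their counts stand beside 5.55% higher and 13.4% lower over all genes tested. Of 13 tested mast cell, basophil and eosinophil genes 4 fell (1, 1, 1 and 6 without preleukemia 1, preleukemia 2, leukemia 1 and leukemia 2, and 7 and 7 without mock 1 and mock 2) and none rose (1 without leukemia 1, mock 1 or mock 2). Gzmb, granzyme B, measured 11.5 and 8.02 RPKM in preleukemia and 0.638 and 0.359 in leukemia (log2 fold change -2.83, adjusted p = 0.00173), and Cpa3, a mast cell protease, measured 5.62 and 4.26 RPKM in preleukemia and 0.885 and 0.911 in leukemia (log2 fold change -1.64, adjusted p = 0.0136). Cpa3 lost its call without preleukemia 1 (adjusted p = 0.0853), preleukemia 2 (0.068), leukemia 1 (0.0791) or leukemia 2 (0.0609). The eosinophil granule genes split the leukemia pair. Prg2, major basic protein, measured 33.8 and 40.9 RPKM in preleukemia and 1.87 and 133 in leukemia (log2 fold change -0.96, adjusted p = 0.707), and Epx, eosinophil peroxidase, measured 42.8 and 38.8 RPKM in preleukemia and 1.6 and 19.9 in leukemia (log2 fold change -2.50, adjusted p = 0.0851). Leukemia 2 was above leukemia 1 for both, and the change of Prg2 was 1.81 without leukemia 1 (adjusted p = 0.0213) and -3.73 without leukemia 2 (adjusted p = 0.00239). Epx passed without leukemia 2 (adjusted p = 0.00239). Dntt, terminal transferase of early lymphoid cells, measured 2.42 and 3 RPKM in preleukemia and 0 and 0.0239 in leukemia (log2 fold change -1.87, adjusted p = 0.00386) and 19.98 and 12 in mock. Of 5 tested T and NK cell genes 3 fell (3, 2, 3 and 3 without preleukemia 1, preleukemia 2, leukemia 1 and leukemia 2). These were Thy1, Nkg7 and Gzmb, also counted in the stem cell, primary granule and mast cell lists, while Lck and Lat did not pass. Nkg7, a granule membrane protein, measured 66.7 and 67.2 RPKM in preleukemia and 6.83 and 14.6 in leukemia (log2 fold change -2.62, adjusted p = 0.00581). Nkg7 lost its call without preleukemia 2 (adjusted p = 0.0504). Of 10 tested dendritic cell and MHC class II genes only H2-DMa, which loads peptides onto class II molecules, passed, at 9.87 and 8.22 RPKM in preleukemia and 2.35 and 2.14 in leukemia (log2 fold change -1.63, adjusted p = 0.00127). The median of the list was 0.19, with 6 changes positive and 4 negative. The markers H2-Aa (log2 fold change 0.87, adjusted p = 0.342), H2-Ab1 (0.53, adjusted p = 0.449) and Cd74 (0.75, adjusted p = 0.491) did not pass.

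Stem cell genes did not move together. For comparison, 5.55% of all genes tested were higher and 13.4% lower. Of 21 tested, 9 fell (7, 7, 8 and 9 without preleukemia 1, preleukemia 2, leukemia 1 and leukemia 2) and 2 rose (2, 1, 1 and 2 without preleukemia 1, preleukemia 2, leukemia 1 and leukemia 2), with a median of -0.46. Ly6a, the stem cell antigen Sca-1, measured 34 and 36.2 RPKM in preleukemia and 1.86 and 1.74 in leukemia (log2 fold change -3.69 ± 0.24 (SE), adjusted p = 0.000716). Cdkn1c, the CDK inhibitor p57, measured 20.1 and 32 RPKM in preleukemia and 2 and 3.56 in leukemia (log2 fold change -2.84, adjusted p = 0.00212). Mycn, a Myc family factor, measured 6.28 and 4.67 RPKM in preleukemia and 0 and 0.0309 in leukemia (log2 fold change -2.66, adjusted p = 0.00145), and Thy1, a surface glycoprotein, measured 11.5 and 13.2 RPKM in preleukemia and 2.14 and 2.2 in leukemia (log2 fold change -2.07, adjusted p = 0.00122). Ly6a, Cdkn1c and Thy1 were low in mock as well, with 3.11 and 6.04, 0.0719 and 0.256 and 0.907 and 1.43 RPKM. Cd34, a sialomucin of progenitors, rose from 63.5 and 47.2 to 127 and 98.6 RPKM (log2 fold change 1.02, adjusted p = 0.0154). Its mock mean was 127 RPKM, so by group means preleukemia was low. Angpt1, the ligand of the Tie2 receptor, measured 38.3 and 28.1 RPKM in preleukemia and 71.2 and 67.8 in leukemia (log2 fold change 1.06, adjusted p = 0.0055). Cd34 lost its call without preleukemia 2 (adjusted p = 0.108) or leukemia 1 (0.102). Gata2, a stem cell factor, measured 51.7 and 41.4 RPKM in preleukemia and 55.9 and 54.8 in leukemia and did not pass (log2 fold change 0.25, adjusted p = 0.419).

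Hoxa9 and Hoxa7 were near 0 in the leukemia libraries. Of 13 tested members 6 fell (4, 4, 5 and 6 without preleukemia 1, preleukemia 2, leukemia 1 and leukemia 2) and 2 rose (1, 1, 1 and 1 without preleukemia 1, preleukemia 2, leukemia 1 and leukemia 2), with a median of -0.75. Hoxa9, a homeobox factor expressed in many myeloid leukemias, measured 2.09 and 3.12 RPKM in preleukemia and 0 and 0 in leukemia (log2 fold change -1.83, adjusted p = 0.0024). Against the RPKM of 3 reads per library this was at least 95.2-fold lower. Hoxa7 measured 2.88 and 2.78 RPKM in preleukemia and 0.0165 and 0.0177 in leukemia (log2 fold change -1.91, adjusted p = 0.00212), and Hoxb4 measured 5.85 and 6.48 RPKM in preleukemia and 1.79 and 1.29 in leukemia (log2 fold change -1.50, adjusted p = 0.00242). Meis1, a Hox cofactor, chosen after its values were seen, measured 4.35 and 3.76 RPKM in preleukemia and 0.0251 and 0.983 in leukemia (log2 fold change -1.82, adjusted p = 0.0102). Meis1 lost its call without preleukemia 1 (adjusted p = 0.0658) or preleukemia 2 (0.0674). Hoxa9 and Hoxa7 were also higher in mock than in preleukemia, at 7.44 and 5.82 and 8.01 and 5.37 RPKM. Sox4, a factor that cooperates in myeloid leukemia, measured 40.1 and 32 RPKM in preleukemia and 111 and 91.4 in leukemia and rose (log2 fold change 1.46, adjusted p = 0.0049).

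Evi1 partners and targets were mixed around the median of all genes. Over all genes tested 5.55% were higher and 13.4% lower, the shares to set beside the counts of this paragraph. The falls of the Evi1 list, 2 of 21, lay below that share. Of 21 tested 4 rose (3, 2, 3 and 4 without preleukemia 1, preleukemia 2, leukemia 1 and leukemia 2) and 2 fell (1, 1, 1 and 1 without preleukemia 1, preleukemia 2, leukemia 1 and leukemia 2, and 5 and 5 without mock 1 and mock 2), with a median of -0.09. Gpr56, an adhesion receptor of stem cells and a known Evi1 target, measured 166 and 136 RPKM in preleukemia and 352 and 307 in leukemia (log2 fold change 1.12 ± 0.15 (SE), adjusted p = 0.00518). Erg, an ETS factor of stem cells, measured 28 and 28.3 RPKM in preleukemia and 50.5 and 43.9 in leukemia (log2 fold change 0.72, adjusted p = 0.00622). Both were higher in both leukemia libraries than in any other. Erg lost its call without preleukemia 1 (adjusted p = 0.0507), preleukemia 2 (0.0623) or leukemia 1 (0.059). Gata1, the erythroid and megakaryocyte factor, measured 10.9 and 4.98 RPKM in preleukemia and 0.84 and 2.61 in leukemia and did not pass (log2 fold change -1.71, adjusted p = 0.055). Gata1 passed without mock 1 (adjusted p = 0.03) or mock 2 (0.0296). Among 22 adhesion and homing genes 4 rose (4, 2, 2 and 3 without preleukemia 1, preleukemia 2, leukemia 1 and leukemia 2) and 5 fell (4, 1, 1 and 4 without preleukemia 1, preleukemia 2, leukemia 1 and leukemia 2, and 9 and 9 without mock 1 and mock 2). Robo4, a guidance receptor of endothelium and stem cells, measured 0.317 and 0.439 RPKM in preleukemia and 5.42 and 3.88 in leukemia (log2 fold change 2.02, adjusted p = 0.00188), and Itgb3, the beta 3 integrin, measured 1.64 and 1.72 RPKM in preleukemia and 0.0645 and 0.207 in leukemia (log2 fold change -1.24, adjusted p = 0.00324).

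Genes of cell death and of the p53 response were more often higher. The tumor suppressor p53 activates genes that halt the cycle or start apoptosis, and the Bcl2 family sets the threshold for apoptosis. Of 26 tested p53 targets 7 rose and none fell (3, 3, 3 and 3 without preleukemia 1, preleukemia 2, leukemia 1 and leukemia 2 for the rises), with a median of 0.19, where 5.55% of all genes tested rose. Pmaip1, the BH3 protein Noxa, measured 6.21 and 8.36 RPKM in preleukemia and 60.2 and 46 in leukemia (log2 fold change 2.71 ± 0.38 (SE), adjusted p = 0.00566). Phlda3, an Akt inhibitor, measured 0.569 and 0.267 RPKM in preleukemia and 3.97 and 3.72 in leukemia (log2 fold change 1.78, adjusted p = 0.00209). Btg2, an antiproliferative factor, measured 15.9 and 20.7 RPKM in preleukemia and 34.7 and 36.3 in leukemia (log2 fold change 0.93, adjusted p = 0.0139), and Sesn1, a sestrin, measured 19.6 and 14.1 RPKM in preleukemia and 34.2 and 30.4 in leukemia (log2 fold change 0.91, adjusted p = 0.0135). Btg2 lost its call without preleukemia 1 (adjusted p = 0.0859), leukemia 1 (0.0778) or leukemia 2 (0.0739). Sesn1 lost its call without preleukemia 2 (adjusted p = 0.0878) or leukemia 1 (0.101). Cdkn1a, the CDK inhibitor p21, measured 10.3 and 7.94 RPKM in preleukemia and 17.7 and 11.4 in leukemia and did not pass (log2 fold change 0.60, adjusted p = 0.39). Of 12 tested Bcl2 family genes 3 rose and none fell (2, 2, 2 and 2 without preleukemia 1, preleukemia 2, leukemia 1 and leukemia 2, and 6 and 6 without mock 1 and mock 2 for the rises, with 2 falls without mock 1 or mock 2). These were Pmaip1, the survival gene Bcl2 and the BH3 gene Bbc3, so members with opposing roles rose. Pmaip1 and Bbc3 are also counted among the p53 targets, and Btg2 also among the immediate-early genes. Mock means lay between preleukemia and leukemia for Pmaip1 (17 RPKM), Phlda3 (0.93), Btg2 (27.4) and Bbc3 (12.5). For the other p53 targets that rose, Sesn1 (12.9), Zmat3 (0.737) and Psrc1 (3.85), mock means lay below preleukemia. Bcl2 measured 9.47 and 9.76 RPKM in preleukemia and 37.4 and 32.7 in leukemia, with 22.1 and 22.6 in mock (log2 fold change 1.76 ± 0.10 (SE), adjusted p = 0.000507). Bbc3, the BH3 protein Puma, measured 5.53 and 4.46 RPKM in preleukemia and 18.1 and 16.6 in leukemia (log2 fold change 1.62, adjusted p = 0.0423). Bbc3 lost its call without preleukemia 1 (adjusted p = 0.133), preleukemia 2 (0.209), leukemia 1 (0.179) or leukemia 2 (0.134).

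Cell cycle genes gave few calls. None of 41 tested mitosis genes passed, 0 with each of the 4 Evi1 libraries left out, but 15 and 15 were lower without mock 1 and mock 2. The median was -0.35 and the libraries of the groups did not overlap for 38 of the 41, all lower in leukemia, against 45.8% of all genes tested. Mki67, a marker of cycling cells, measured 60.3 and 64 RPKM in preleukemia and 49 and 41.4 in leukemia (log2 fold change -0.45, adjusted p = 0.0815). Mki67 passed without mock 1 (adjusted p = 0.0215) or mock 2 (0.0215). Of 46 replication genes 3 fell (1, 0, 1 and 0 without preleukemia 1, preleukemia 2, leukemia 1 and leukemia 2, and 14 and 14 without mock 1 and mock 2), with a median of -0.21. The share of falls among replication genes was below the 13.4% of all genes tested. Rrm2, a subunit of ribonucleotide reductase, measured 44 and 54.4 RPKM in preleukemia and 25.1 and 23.4 in leukemia (log2 fold change -0.99, adjusted p = 0.00976). Rrm2 lost its call without preleukemia 2 (adjusted p = 0.0852), leukemia 1 (0.0562) or leukemia 2 (0.056). The D cyclins, which start the cycle with Cdk4 and Cdk6, differed from each other. Ccnd1 measured 9.55 and 6.06 RPKM in preleukemia and 29.8 and 25.7 in leukemia and rose (log2 fold change 1.73 ± 0.20 (SE), adjusted p = 0.00295), Ccnd2 measured 28.3 and 23.8 RPKM in preleukemia and 14.6 and 15.5 in leukemia and fell (log2 fold change -0.75, adjusted p = 0.00801), and Ccnd3 measured 15.7 and 24.2 RPKM in preleukemia and 8.27 and 11.8 in leukemia and fell (log2 fold change -0.91, adjusted p = 0.0381). Ccnd2 lost its call without preleukemia 1 (adjusted p = 0.0621) or leukemia 1 (0.0685). Ccnd3 lost its call without preleukemia 2 (adjusted p = 0.21), leukemia 1 (0.206) or leukemia 2 (0.0521). Myc measured 88.5 and 99.1 RPKM in preleukemia and 145 and 129 in leukemia (log2 fold change 0.54, adjusted p = 0.244). Myc passed without mock 1 (adjusted p = 0.012) or mock 2 (0.0123).

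**Figure D4:**
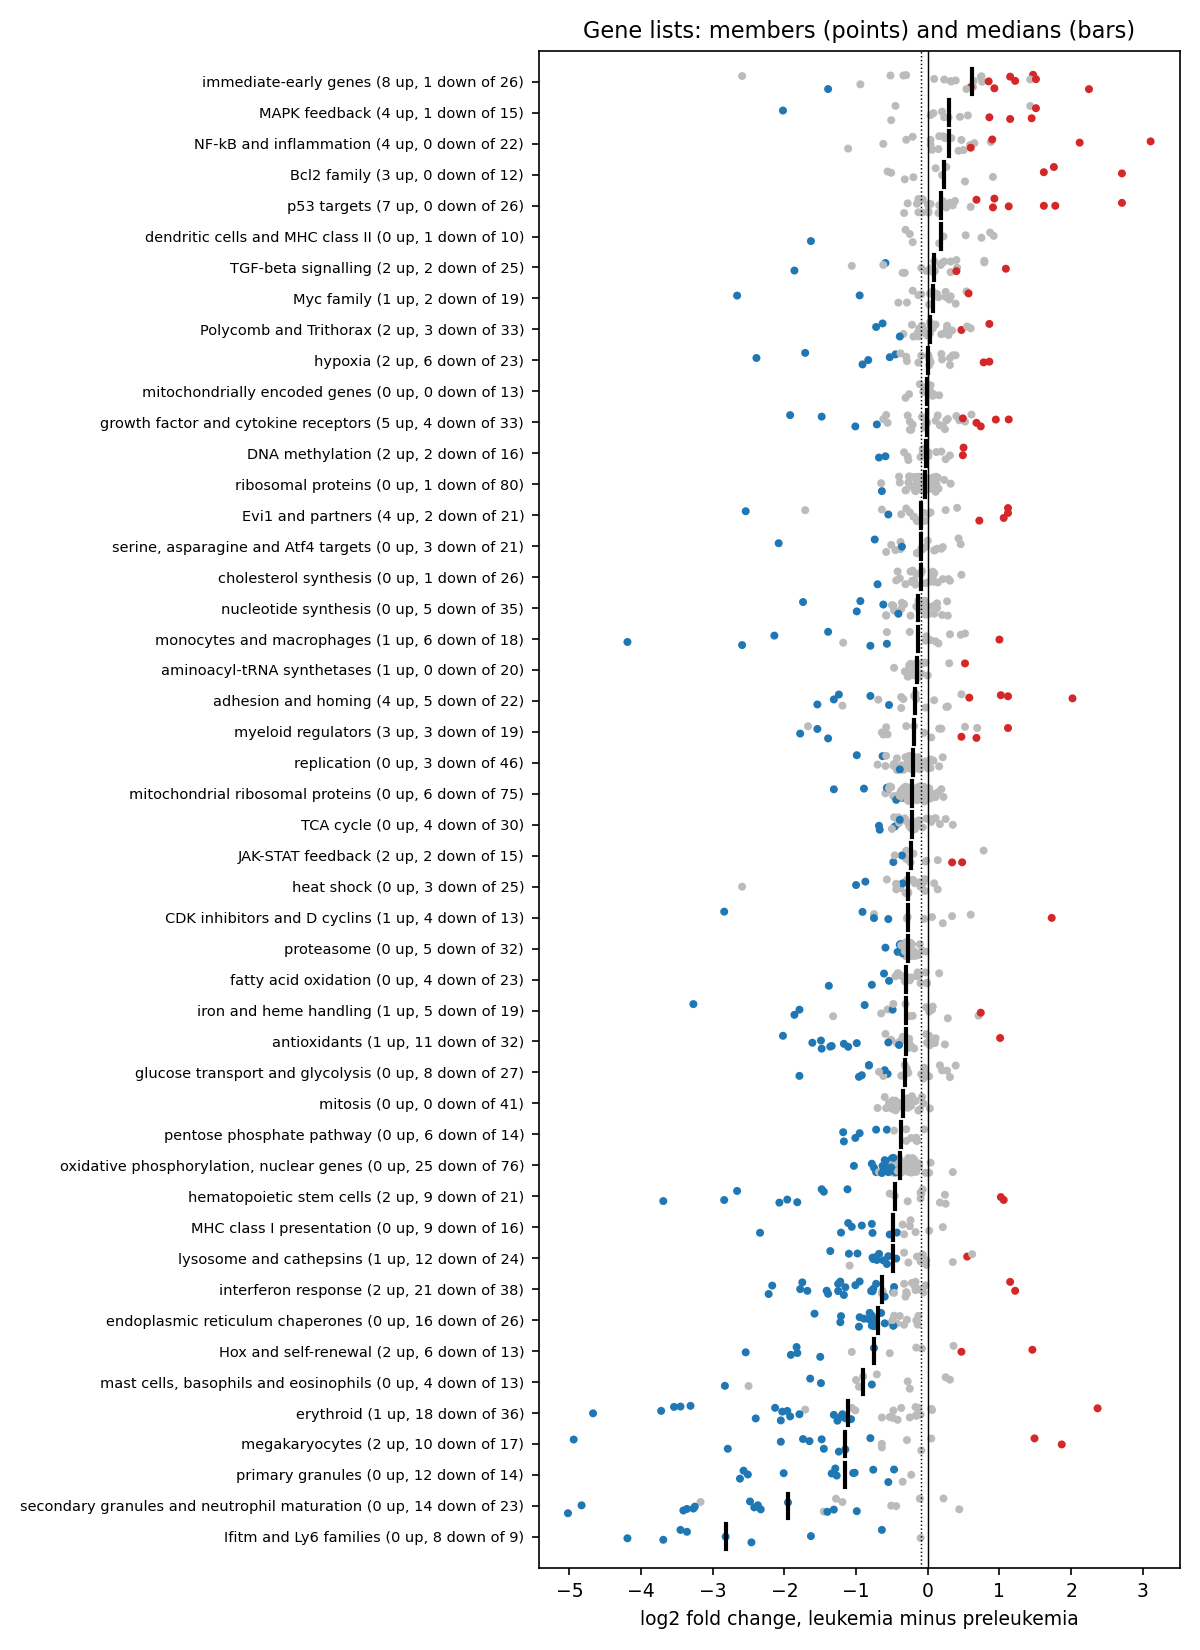
Log2 fold change of leukemia minus preleukemia for the members of each list with at least 9 tested genes, with red for members that rose, blue for those that fell, grey for the rest and a black bar for the list's median. The dotted line is the median of all genes (-0.09), and the lists run from the Ifitm and Ly6 families (median -2.82) to immediate-early genes (median 0.62).

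Interferon response genes and the antiviral Ifitm and Ly6 families were lower in leukemia. Interferons bind surface receptors that activate Stat factors and Irf9, which bind an interferon response element with repeated GAAA. Of 38 tested response genes 21 fell (11, 10, 12 and 12 without preleukemia 1, preleukemia 2, leukemia 1 and leukemia 2) and 2 rose (1, 0, 0 and 2 without preleukemia 1, preleukemia 2, leukemia 1 and leukemia 2), with a median of -0.64. The promoters of Isg15 and Oas3 show the element in genes that fell, Oas3 having been chosen after its values were seen. Each sequence is the 250 bases before the transcription start from RefSeq on GRCm38.p6, 5′ to 3′, with matches to GAAANNGAAA or its reverse complement in capitals, overlapping matches run together.
Isg15 (chr4:156200819-156201068, minus strand): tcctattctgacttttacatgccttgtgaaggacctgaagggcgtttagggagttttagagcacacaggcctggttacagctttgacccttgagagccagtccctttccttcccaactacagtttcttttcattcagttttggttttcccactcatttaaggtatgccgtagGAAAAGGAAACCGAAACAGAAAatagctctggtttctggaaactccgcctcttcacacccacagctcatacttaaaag
Oas3 (chr5:120777660-120777909, minus strand): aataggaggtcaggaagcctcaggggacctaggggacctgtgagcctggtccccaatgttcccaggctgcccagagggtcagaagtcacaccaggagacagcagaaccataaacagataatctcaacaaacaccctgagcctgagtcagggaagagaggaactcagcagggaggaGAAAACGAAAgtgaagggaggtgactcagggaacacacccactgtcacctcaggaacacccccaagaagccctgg
This motif, searched on both strands, was found in 2.98% of 32851 promoter windows of 250 bases and in 3.29% of those of 8414 genes tested. It was present for 5 of 13 list members that fell and have a promoter in the table (38.5%), for 6 of 11 that did not pass (54.5%) and for both that rose. Its share was higher among the members that did not pass than among those that fell.

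Levels of the leading interferon genes were highest in preleukemia. Oas2, a sensor of double-stranded RNA, measured 12 and 14.5 RPKM in preleukemia and 1.96 and 2.12 in leukemia (log2 fold change -2.22 ± 0.15 (SE), adjusted p = 0.000819), against 1.35 and 0.989 in mock. Isg15, a ubiquitin-like modifier, measured 8.68 and 7.88 RPKM in preleukemia and 2.14 and 2.89 in leukemia (log2 fold change -1.41, adjusted p = 0.00242), against 2.63 and 2.62 in mock. Oas3 measured 6.79 and 6.09 RPKM in preleukemia and 1.68 and 1.01 in leukemia (log2 fold change -1.68, adjusted p = 0.0044), against 1.86 and 1.02 in mock. In all 3 the preleukemia libraries stood above the other 4. Rtp4, a Golgi chaperone of receptors, measured 4.58 and 3.55 RPKM in preleukemia and 0.484 and 0.518 in leukemia (log2 fold change -1.75, adjusted p = 0.0025). Rsad2, the antiviral enzyme viperin, was the larger of the 2 rises, at 2.74 and 2.01 RPKM in preleukemia and 7.91 and 5.9 in leukemia (log2 fold change 1.22, adjusted p = 0.0115). Rsad2 lost its call without preleukemia 2 (adjusted p = 0.0942) or leukemia 1 (0.0833). Of 9 tested Ifitm and Ly6 genes 8 fell and none rose (6, 5, 7 and 6 without preleukemia 1, preleukemia 2, leukemia 1 and leukemia 2 for the falls), with a median of -2.82. Ifitm3, which blocks viral entry, measured 213 and 215 RPKM in preleukemia and 39.5 and 36.8 in leukemia (log2 fold change -2.46 ± 0.09 (SE), adjusted p = 9.99e-05). Ifitm1 measured 13.2 and 14 RPKM in preleukemia and 0.74 and 1.44 in leukemia (log2 fold change -2.82, adjusted p = 0.000584), Ifitm6 measured 35.2 and 62 RPKM in preleukemia and 2.2 and 4.99 in leukemia (log2 fold change -3.45, adjusted p = 0.0035), and Ly6c1 measured 19.3 and 21.7 RPKM in preleukemia and 0.442 and 2.01 in leukemia (log2 fold change -3.36, adjusted p = 0.00209). Ifitm6 was low in mock (1.45 and 3.38), whereas Ifitm1 and Ly6c1 were not (36.5 and 33.1, and 18.3 and 23.9). Ly6c1 and Ly6c2 are near-identical copies, and the division of reads between them is uncertain.

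Genes of MHC class I presentation were lower as well. Class I molecules carry peptides from the proteasome to the cell surface with beta 2 microglobulin. Of 16 tested genes 9 fell and none rose (4, 4, 5 and 5 without preleukemia 1, preleukemia 2, leukemia 1 and leukemia 2 for the falls), with a median of -0.48. The heavy chain gene H2-K1 measured 354 and 335 RPKM in preleukemia and 150.2 and 169 in leukemia (log2 fold change -1.11, adjusted p = 0.00309) and H2-D1 measured 299.6 and 296 RPKM in preleukemia and 134 and 151 in leukemia (log2 fold change -1.06, adjusted p = 0.00379). B2m, the shared light chain, measured 1082 and 940.1 RPKM in preleukemia and 527 and 539 in leukemia (log2 fold change -0.92, adjusted p = 0.00446). The 3 were below mock too, where B2m had 777 and 845 RPKM. H2-Q7, a nonclassical heavy chain whose reads may be shared with near-identical Q genes, measured 46.5 and 42.4 RPKM in preleukemia and 5.89 and 10.7 in leukemia (log2 fold change -2.34, adjusted p = 0.00512).

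Most tested chaperones of the endoplasmic reticulum fell. In this compartment they fold secreted and membrane proteins, and many of their genes respond to unfolded protein through a response element of CCAAT and CCACG separated by 9 bases. Of 26 tested 16 fell and none rose (10, 7, 10 and 10 without preleukemia 1, preleukemia 2, leukemia 1 and leukemia 2 for the falls), with a median of -0.69. The promoters of Hspa5 and Dnajc3 are shown in the same form, with this element in capitals.
Hspa5 (chr2:34771840-34772089, plus strand): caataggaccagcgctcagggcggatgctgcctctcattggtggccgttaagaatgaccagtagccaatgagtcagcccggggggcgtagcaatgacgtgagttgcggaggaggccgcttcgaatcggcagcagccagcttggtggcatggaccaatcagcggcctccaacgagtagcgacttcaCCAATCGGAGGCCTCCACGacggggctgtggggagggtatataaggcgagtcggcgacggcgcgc
Dnajc3 (chr14:118937682-118937931, plus strand): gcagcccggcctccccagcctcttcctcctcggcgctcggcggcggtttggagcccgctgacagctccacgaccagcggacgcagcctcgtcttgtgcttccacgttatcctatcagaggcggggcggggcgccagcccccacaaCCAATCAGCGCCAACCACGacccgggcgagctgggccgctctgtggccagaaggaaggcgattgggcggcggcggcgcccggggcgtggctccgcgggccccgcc
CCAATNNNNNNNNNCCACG, on either strand, was found in 0.113% of the 32851 windows and 0.178% of the 8414. It was present for 6 of 14 members that fell (42.9%), Creld2, Dnajc3, Hsp90b1, Hspa5, Pdia6 and Syvn1, and for 2 of 8 that did not pass (25%), Calr and Canx. A match is a description of the letters and not evidence of binding.

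Hspa5, the chaperone BiP, measured 222 and 251 RPKM in preleukemia and 96.1 and 106 in leukemia (log2 fold change -1.22 ± 0.12 (SE), adjusted p = 0.0023), against 229 and 269 in mock. Dnajc3, its cochaperone, measured 28.4 and 28.6 RPKM in preleukemia and 11.3 and 12.2 in leukemia (log2 fold change -1.21, adjusted p = 0.00209). Sdf2l1, another BiP partner, measured 55.9 and 62.3 RPKM in preleukemia and 20.8 and 17.5 in leukemia (log2 fold change -1.58, adjusted p = 0.00209). Both leukemia libraries were the lowest of the 6 in these genes. Manf, a secreted protein of the compartment, measured 26.9 and 27 RPKM in preleukemia and 13.1 and 14 in leukemia (log2 fold change -0.95, adjusted p = 0.00212), and Hyou1, a large chaperone chosen after its values were seen, measured 40.6 and 42.5 RPKM in preleukemia and 22.6 and 21.3 in leukemia (log2 fold change -0.89, adjusted p = 0.00377). The sum over the list was 2315 and 2281 RPKM in preleukemia and 1487 and 1469 in leukemia. Of all genes tested 13.4% were lower, and the heat shock falls given next, 3 of 25, were near that share. Among 25 heat shock chaperones of the cytosol and nucleus 3 fell (1, 0, 0 and 1 without preleukemia 1, preleukemia 2, leukemia 1 and leukemia 2, and 8 and 7 without mock 1 and mock 2), with a median of -0.27, and Hsp90ab1 measured 771 and 706 RPKM in preleukemia and 855 and 769 in leukemia (log2 fold change 0.14, adjusted p = 0.461). The difference between these lists was not tested.

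Immediate-early genes, which growth factor and stress signals switch on within minutes, were higher more often than lower. Of 26 tested 8 rose (3, 4, 2 and 5 without preleukemia 1, preleukemia 2, leukemia 1 and leukemia 2, and 13 and 13 without mock 1 and mock 2) and 1 fell (1, 0, 0 and 0 without preleukemia 1, preleukemia 2, leukemia 1 and leukemia 2, and 3 and 3 without mock 1 and mock 2), with a median of 0.62. Egr1, a zinc finger factor, measured 8.54 and 11.1 RPKM in preleukemia and 41 and 60.7 in leukemia and 45.5 and 47.8 in mock, so preleukemia was the low group (log2 fold change 2.25 ± 0.20 (SE), adjusted p = 0.00176). Egr3 measured 0.292 and 0.392 RPKM in preleukemia and 3.09 and 2.37 in leukemia (log2 fold change 1.47, adjusted p = 0.0129). Egr3 lost its call without preleukemia 1 (adjusted p = 0.076), preleukemia 2 (0.0793) or leukemia 1 (0.0869). Fos, an AP-1 subunit, did not pass at 351 and 483 RPKM in preleukemia and 297 and 357 in leukemia (log2 fold change -0.34, adjusted p = 0.232). Hspa1b, a heat shock gene in this list, measured 2.61 and 22.1 RPKM in preleukemia and 0.645 and 0.399 in leukemia (log2 fold change -2.59, adjusted p = 0.0768), with preleukemia 2 far above preleukemia 1. Hspa1b passed without preleukemia 1 (adjusted p = 0.0193). Of 15 tested feedback inhibitors of MAPK signalling 4 rose (2, 1, 2 and 3 without preleukemia 1, preleukemia 2, leukemia 1 and leukemia 2, and 7 and 7 without mock 1 and mock 2) and 1 fell (2 without mock 1). The rises of Dusp2 and Dusp6 are counted in the immediate-early list as well. Dusp6, an ERK phosphatase, measured 8.71 and 8.06 RPKM in preleukemia and 22.3 and 29.5 in leukemia and 26 and 24.3 in mock (log2 fold change 1.51, adjusted p = 0.00209). Spry2, a Sprouty protein, was the fall, at 4.25 and 4.03 RPKM in preleukemia and 0.16 and 0.391 in leukemia (log2 fold change -2.02, adjusted p = 0.001). Both are induced by ERK signalling, and they went in opposite directions. Of 22 NF-kB and inflammation genes 4 rose and none fell (2, 2, 2 and 4 without preleukemia 1, preleukemia 2, leukemia 1 and leukemia 2, and 9 and 9 without mock 1 and mock 2 for the rises, with 1 fall without mock 1 or mock 2), with a median of 0.29. Besides Ccl3 and Ccl4 these were Ier3, at 23.3 and 23.4 RPKM in preleukemia and 40.4 and 31.7 in leukemia (log2 fold change 0.60, adjusted p = 0.0214), and Tnf, at 0.252 and 0.423 RPKM in preleukemia and 2.03 and 1.06 in leukemia (log2 fold change 0.90, adjusted p = 0.0263). Ier3 lost its call without preleukemia 1 (adjusted p = 0.114), preleukemia 2 (0.136) or leukemia 1 (0.13). Tnf lost its call without preleukemia 1 (adjusted p = 0.138), preleukemia 2 (0.108) or leukemia 1 (0.131). Both mock libraries were above both preleukemia libraries for all 4 genes.

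Receptors and other signalling lists held calls in both directions. Of 33 growth factor and cytokine receptors 5 rose (0, 0, 1 and 0 without preleukemia 1, preleukemia 2, leukemia 1 and leukemia 2) and 4 fell (1, 1, 1 and 3 without preleukemia 1, preleukemia 2, leukemia 1 and leukemia 2, and 7 and 7 without mock 1 and mock 2). Il3ra, the interleukin 3 receptor, measured 27.9 and 24 RPKM in preleukemia and 41.7 and 42.5 in leukemia (log2 fold change 0.68, adjusted p = 0.0183), and Ifngr1, an interferon gamma receptor subunit, measured 69.9 and 66 RPKM in preleukemia and 28.2 and 39 in leukemia (log2 fold change -1.01, adjusted p = 0.013). Il3ra lost its call without preleukemia 1 (adjusted p = 0.0607), preleukemia 2 (0.144), leukemia 1 (0.104) or leukemia 2 (0.0938). Ifngr1 lost its call without preleukemia 1 (adjusted p = 0.0818), preleukemia 2 (0.0846) or leukemia 1 (0.0758). Among 25 TGF-beta pathway genes 2 rose (0, 0, 0 and 0 without preleukemia 1, preleukemia 2, leukemia 1 and leukemia 2, and 6 and 6 without mock 1 and mock 2) and 2 fell (1, 1, 1 and 2 without preleukemia 1, preleukemia 2, leukemia 1 and leukemia 2, and 4 and 4 without mock 1 and mock 2). The coreceptor gene Tgfbr3 measured 3.31 and 2.4 RPKM in preleukemia and 0.0364 and 0.07 in leukemia (log2 fold change -1.86, adjusted p = 0.00188). Of 15 JAK-STAT genes 2 rose and 2 fell, and 0 in either direction with any 1 Evi1 library left out. Of 16 genes of DNA methylation 2 rose and 2 fell, and these calls too numbered 0 with 1 Evi1 library left out. They were the methyltransferases Dnmt3a and Dnmt3b, and Tet1 and Idh1 on the lower side. Among 33 Polycomb and Trithorax genes 2 rose (0, 0, 0 and 0 without preleukemia 1, preleukemia 2, leukemia 1 and leukemia 2, and 8 and 8 without mock 1 and mock 2) and 3 fell (1, 0, 0 and 0 without preleukemia 1, preleukemia 2, leukemia 1 and leukemia 2). With 5.55% of all genes higher and 13.4% lower, the counts of the TGF-beta, JAK-STAT, DNA methylation and Polycomb lists show nothing particular to them. The share of falls among the growth factor and cytokine receptors was also near that of all genes.

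Metabolic genes fell more often than they rose, as did all genes tested (13.4% lower, 5.55% higher), and Fbp1 was among the few that rose. Falls in 3 lists were near or below that share: 4 of 30 TCA cycle, 5 of 35 nucleotide synthesis and 1 of 26 cholesterol synthesis genes. Fbp1, fructose-1,6-bisphosphatase of gluconeogenesis, measured 19.5 and 21.3 RPKM in preleukemia and 59.9 and 53.9 in leukemia, with 2.07 and 2.01 in mock (log2 fold change 1.44 ± 0.11 (SE), adjusted p = 0.0011), and the other 4 tested genes of that pathway did not pass. Of 27 genes of glucose transport and glycolysis 8 fell and none rose (3, 1, 1 and 2 without preleukemia 1, preleukemia 2, leukemia 1 and leukemia 2, and 14 and 14 without mock 1 and mock 2 for the falls, with 1 rise without mock 1 or mock 2), with a median of -0.32. Ldhb, a lactate dehydrogenase, measured 78.3 and 76.2 RPKM in preleukemia and 37 and 41.7 in leukemia (log2 fold change -0.96, adjusted p = 0.00295), against 4.6 and 5.23 in mock. Of 14 pentose phosphate genes 6 fell (3, 0, 1 and 2 without preleukemia 1, preleukemia 2, leukemia 1 and leukemia 2). G6pdx, whose enzyme opens the pathway, measured 31.7 and 40.7 RPKM in preleukemia and 13.9 and 16.8 in leukemia (log2 fold change -1.18, adjusted p = 0.00777). G6pdx lost its call without preleukemia 2 (adjusted p = 0.0685) or leukemia 1 (0.059). Antioxidant genes had 11 falls (6, 3, 6 and 9 without preleukemia 1, preleukemia 2, leukemia 1 and leukemia 2) and 1 rise (1, 0, 0 and 1 without preleukemia 1, preleukemia 2, leukemia 1 and leukemia 2) among 32. Gpx3, a secreted glutathione peroxidase, measured 7.53 and 8.64 RPKM in preleukemia and 1.92 and 2.61 in leukemia (log2 fold change -1.48, adjusted p = 0.00242), and Srxn1, a sulfiredoxin, measured 3.56 and 2.77 RPKM in preleukemia and 0.253 and 0.469 in leukemia (log2 fold change -1.61, adjusted p = 0.00329). The NADPH oxidase subunit Cyba, chosen after its values were seen, measured 59.2 and 82.1 RPKM in preleukemia and 24.7 and 27.1 in leukemia (log2 fold change -1.40, adjusted p = 0.00464). Asns, asparagine synthetase, measured 3.5 and 4.51 RPKM in preleukemia and 0.174 and 0.186 in leukemia (log2 fold change -2.08, adjusted p = 0.0024), the largest fall in a list of 21 genes of serine and asparagine synthesis and Atf4 targets. Of these 3 fell (1, 1, 1 and 1 without preleukemia 1, preleukemia 2, leukemia 1 and leukemia 2, and 6 and 6 without mock 1 and mock 2), a share near the 13.4% of all genes. Impdh1, which makes guanine nucleotides, measured 25.3 and 26.9 RPKM in preleukemia and 6.13 and 8.22 in leukemia (log2 fold change -1.74, adjusted p = 0.0023), and its paralog Impdh2 measured 89 and 80.9 RPKM in preleukemia and 102 and 84.7 in leukemia (log2 fold change 0.13, adjusted p = 0.509).

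Of 76 nuclear genes of the respiratory chain 25 fell and none rose, but these calls were fragile: 0, 1, 3 and 0 without preleukemia 1, preleukemia 2, leukemia 1 and leukemia 2, and 44 and 44 without mock 1 and mock 2. Scaling like TMM left 15 and quantile normalization 11. Their median was -0.39 and their sum was 2977 and 2761 RPKM in preleukemia and 2326 and 2124 in leukemia. Cox7b, a subunit of complex IV, measured 42.4 and 38.5 RPKM in preleukemia and 27.7 and 24.9 in leukemia (log2 fold change -0.60, adjusted p = 0.0113). Cox7b lost its call without preleukemia 1 (adjusted p = 0.0889), preleukemia 2 (0.0674), leukemia 1 (0.054) or leukemia 2 (0.0786). None of 13 mitochondrially encoded genes passed, and their median was -0.01. The difference between these lists was not tested. For example mt-Co1 measured 3469.7 and 3004 RPKM in preleukemia and 2798 and 3202 in leukemia (log2 fold change -0.11, adjusted p = 0.66). Etfb, an electron carrier of fatty acid oxidation, measured 91.9 and 98.8 RPKM in preleukemia and 34.7 and 37.4 in leukemia (log2 fold change -1.38, adjusted p = 0.00182). Of 23 genes of that pathway 4 fell, a share near the 13.4% of all genes tested, so the count shows nothing particular to it. Fewer fell without any 1 Evi1 library and more without either mock library. Ribosomal protein genes, 80 in all, gave 1 fall (0, 1, 1 and 0 without preleukemia 1, preleukemia 2, leukemia 1 and leukemia 2, and 4 and 4 without mock 1 and mock 2) and no rise (1 without preleukemia 1), with a median of -0.04 (0.14 after quantile normalization, when 11 rose and 1 fell).

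Of 24 tested lysosomal genes 12 fell (5, 3, 5 and 7 without preleukemia 1, preleukemia 2, leukemia 1 and leukemia 2), and 1 rose (0, 0, 0 and 0 without preleukemia 1, preleukemia 2, leukemia 1 and leukemia 2, and 2 and 2 without mock 1 and mock 2). Grn, the progranulin precursor, measured 57.7 and 66.6 RPKM in preleukemia and 21.6 and 25.5 in leukemia (log2 fold change -1.36, adjusted p = 0.00212), and Ctsb, cathepsin B, measured 62.7 and 66.9 RPKM in preleukemia and 31.4 and 33.1 in leukemia (log2 fold change -0.98, adjusted p = 0.00194). Mock values lay near those of leukemia, with 29.9 and 35.2 RPKM for Grn and 31.2 and 31.1 for Ctsb. Over all genes tested 5.55% were higher and 13.4% lower, the shares for the lysosomal counts above and the hypoxia counts below. Ctsa, the protective protein cathepsin A, rose from 24.5 and 23.3 to 36 and 35.1 RPKM (log2 fold change 0.55, adjusted p = 0.00937). Ctsa lost its call without preleukemia 1 (adjusted p = 0.0601), preleukemia 2 (0.101), leukemia 1 (0.0881) or leukemia 2 (0.0589). Hypoxia genes had 2 rises (1, 0, 0 and 1 without preleukemia 1, preleukemia 2, leukemia 1 and leukemia 2, and 5 and 5 without mock 1 and mock 2) and 6 falls (1, 1, 2 and 3 without preleukemia 1, preleukemia 2, leukemia 1 and leukemia 2) among 23. Egln3, a prolyl hydroxylase that marks Hif1a for degradation, measured 26 and 22.7 RPKM in preleukemia and 47.1 and 43.1 in leukemia (log2 fold change 0.86, adjusted p = 0.00817), and Hif1a measured 15 and 15.2 RPKM in preleukemia and 8.77 and 7.37 in leukemia (log2 fold change -0.83, adjusted p = 0.00726). Egln3 lost its call without preleukemia 2 (adjusted p = 0.0791) or leukemia 1 (0.0689). Hif1a lost its call without preleukemia 1 (adjusted p = 0.0512) or preleukemia 2 (0.0704).

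Both pairs were uneven over the genes that fell most. Among the 514 genes that fell by at least 1, leukemia 2 was above leukemia 1, and so nearer to preleukemia, for 411 (80.0%), against 45.3% of all genes tested. Among the 165 that rose by at least 1, leukemia 2 was above leukemia 1 for 46 (27.9%). Over the same 514 genes preleukemia 2 was above preleukemia 1 for 349 (67.9%), against 43.3% of all genes tested. Ngp, Lcn2, Car1 and Ly6c2 are examples on the falling side, with 2.46 and 25.8, 5 and 21.6, 0.534 and 3.34 and 5.68 and 34.8 RPKM in leukemia 1 and 2. Since these genes were selected by the mean of both libraries, the shares are a description.

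**Figure D5:**
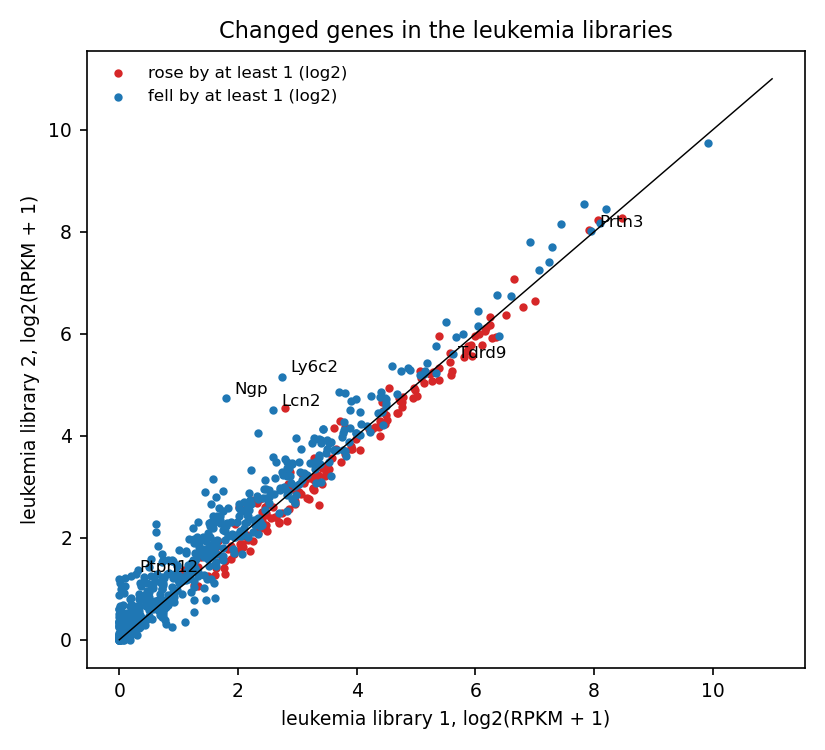
Log2(RPKM + 1) in leukemia 2 against leukemia 1 for the 514 genes that fell (blue) and the 165 that rose (red) by at least 1 on the log2 scale, with a line where the libraries are equal. Of the blue points 411 lie above the line, and Ngp and Ly6c2 lie far above it.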

How the data were processed

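The deposited table gives 1 value per gene and library. Its unit was not named and was inferred to be RPKM, since the authors' values times the GENCODE M21 exon length (37149 of 38924 rows matched) came within 0.02 of whole reads in 64.4% to 66.4% of values under 20 reads (4% by chance). CASAVA 1.8.2 and GRCm38 come from the submitters' processing notes. The sources used here do not name the aligner or the counting tool. Per the labels' protocols, a NEB Next Ultra kit was used, and strand is not stated, so antisense genes cannot be told apart.

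All 6 libraries were fitted with limma 3.58.1 in R 4.3.3 on log2(RPKM + 1), with group means and no covariate, a spread that follows the level (3 residual and 3.75 prior degrees of freedom), two-sided tests and Benjamini-Hochberg adjustment over the 10667 genes at 0.05. The pseudocount pulls changes of low genes towards 0. The script was tested on simulated data. Genes and 54 lists were chosen with earlier results of these data known. The rule named Mecom, Fbp1 and Kit, the 15 largest rises and falls past the test by at least 1 without overlap (unnamed gene models left out), up to 4 members per list and direction by smallest p, cell type markers and adjacent genes. Not all of these are reported here. Alternatives were other pseudocounts, filters, scalings and spread models, a fit of the 4 libraries, a replicate block and each library left out. The same replicate numbers stand in all groups, but nothing says that they pair samples.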

Additional observations from a re-analysis of the deposited data

How the results depend on the processing

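The count of 2019 changed genes kept within 1.5 times under other pseudocounts and filters, TMM-like scaling, quantile normalization, no trend, robust estimation and voom on the implied reads (1999, chosen after seeing the data). A fit of the 4 libraries compared called 3419 (1049 higher, 2370 lower), and array weights 3733 (1151 and 2582). Quantile normalization raised the genes higher in leukemia to 946, and a minimum of 5 RPKM, which tests fewer genes (7488), lowered them to 385 and the changes of at least 1 to 406. Rises of at least 1 went from 165 to 259 with a pseudocount of 0.1, 275 with voom and 105 with that minimum, and falls from 514 to 301 with it. With 1 library left out, the count ran from 467 to 3441, higher from 127 to 1056, lower from 340 to 2391, and changes of at least 1 from 406 to 710. The cause was not tested. The replicate number as a block gave 2088 calls, with a correlation between same-numbered preleukemia and leukemia libraries of 0.191. With the block, falls went from 3 to 5 among myeloid regulators, 0 to 1 among NF-kB genes, 1 to 2 among immediate-early genes and 1 to 3 among ribosomal proteins, and rises from 1 to 2 among lysosomal genes. 2 genes named turned direction with a call: Rplp1 gave 0.36 after quantile normalization, and Prg2 gave 1.81 without leukemia 1 and -3.73 without leukemia 2. With 2 libraries per group, changes of genes near 1 RPKM were limited by depth.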

Other observations

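Some genes stood at similar levels in mock and preleukemia and were at least 8-fold lower in leukemia, a group described after the values were seen. Of 60 genes with at least 5 RPKM in preleukemia and at least 8-fold less in leukemia, 16 had a mock mean within 1.5-fold of preleukemia. Besides Ptpn12, Ly6c1 and Ly6c2 they include Nmral1, an NADPH sensor protein, with 9.51 and 8.5 RPKM in preleukemia and 0.0612 and 0.209 in leukemia and 9.56 and 8.67 in mock. Fkbp9, a prolyl isomerase of the endoplasmic reticulum, measured 6.45 and 6.57 RPKM in preleukemia and 0.101 and 0.154 in leukemia and 4.75 and 4.23 in mock. Plscr1, a phospholipid scramblase, measured 17.5 and 18.3 RPKM in preleukemia and 1.24 and 1.29 in leukemia and 18.9 and 16.4 in mock. The tight junction gene Tjp1 measured 6.6 and 4.8 RPKM in preleukemia and 0.0841 and 0.152 in leukemia and 4.68 and 5.09 in mock. All 4 kept their calls with any 1 library left out.

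Among stem cell factors outside the rule, chosen after their values were seen, Hlf and Tal1 fell, while Lmo2, Lyl1 and Fli1 of the same list had changes of 0.17, -0.10 and -0.09 that did not pass. Hlf, a leucine zipper factor of stem cells, measured 2.18 and 1.36 RPKM in preleukemia and 0 and 0 in leukemia, at least 77.4-fold lower against the RPKM of 3 reads per library. Tal1, a basic helix-loop-helix factor, measured 13.5 and 10.1 RPKM in preleukemia and 1.96 and 2.58 in leukemia (log2 fold change -1.96, adjusted p = 0.00718). Tal1 lost its call without preleukemia 1 (adjusted p = 0.0504) or leukemia 1 (0.0533). Among gene models without an established name, which the rule left out, BC064078 measured 2.28 and 2.86 RPKM in preleukemia and 47.6 and 37.7 in leukemia and C130026I21Rik 2.36 and 1.76 RPKM in preleukemia and 32.5 and 37.8 in leukemia.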
